A study of Mus musculus with 8 samples.

Results

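The mRNAs of 10 amino acid and peptide transporters were measured in RNA from cardiac extracellular vesicles (EVs) of mice: Slc15a1, Slc6a19, Slc6a20a, Slc7a9, Slc3a1, Slc1a1, Slc36a1, Slc7a7, Slc7a8 and Slc3a2. They are 10 of the 22481 genes in the mRNA table. The genes were chosen by symbol, with earlier results of these data known, including their high levels and the difference of Slc1a1 between groups, so their levels and changes below are a description. All 10 passed the filter on low values, a mean of at least 0.5 FPKM (fragments scaled to transcript length and library size) over the 8 libraries. Slc1a1 had 427 to 1309 fragments per library and the other 9 genes had between 2138 and 36367.

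These proteins carry the products of protein digestion across absorptive cells of the small intestine and the kidney tubule. On the apical side, facing the lumen, they take up short peptides and free amino acids with protons or sodium, or in exchange for other amino acids. On the basolateral side, facing the blood, exchangers made of a light chain that carries the substrate and a heavy chain that brings it to the membrane pass amino acids on. 9 of the 10 genes stand in the protein digestion and absorption pathway of the deposited annotation, and the exception is Slc6a20a.

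EVs were taken from 4 sham mice and 4 IR mice, with 1 library per mouse, in all 8. All mice were male C57BL/6J at 10 weeks of age, with no transgene or other allele named. The IR group had 45 min of ischemia, by ligation of the left anterior descending coronary artery, and 24 h of reperfusion. The sources do not say what the sham operation included, and vesicles were collected by ultracentrifugation from collagenase-digested left ventricle. The mRNA depth was 13824442 to 22497272 fragments per library, and sham 3 and sham 4 were the deepest.

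The tissue label was checked against markers. Of 10 cardiomyocyte markers, Myl2, Nppa, Mb and Csrp3 were at 0 in every library, and the sum of the 10 was between 4.18 and 4.72 FPKM for sham and between 1.86 and 3.87 for IR. The sum of 10 enterocyte markers (enterocytes are the absorptive cells of the small intestine) was 18755 to 33100 FPKM per library. The sum of 5 kidney proximal tubule markers was 0 to 0.0868 FPKM, although the kidney tubule also uses most of the transporters. The profile of these libraries therefore goes against the label of heart, and the values below describe the libraries as labelled. In RNA from a mixture, fewer cells of a type and less RNA per cell cannot be told apart.

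The level of the 10 mRNAs was high for 9 of them and moderate for Slc1a1. The median of their mean FPKM over the 8 libraries was 118, against 8.65 for the 12716 mRNAs tested. In order of mean FPKM ± SD (n = 8 libraries), they were Slc15a1 at 298 ± 115, Slc6a19 at 205 ± 55.7, Slc7a9 at 139 ± 19.0, Slc3a1 at 128 ± 14.8, Slc3a2 at 119 ± 15.9, Slc7a7 at 118 ± 9.05, Slc6a20a at 88.2 ± 29.2, Slc7a8 at 77.4 ± 23.3, Slc36a1 at 72.0 ± 29.6 and Slc1a1 at 11.4 ± 4.01. Neighbours in this order differed by more than the larger of their SDs at 3 steps, from Slc6a19 to Slc7a9, from Slc7a7 to Slc6a20a and from Slc36a1 to Slc1a1. By mean FPKM, Slc15a1 had rank 192 among the 12716 mRNAs and Slc1a1 rank 5436.

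**Figure D1:**
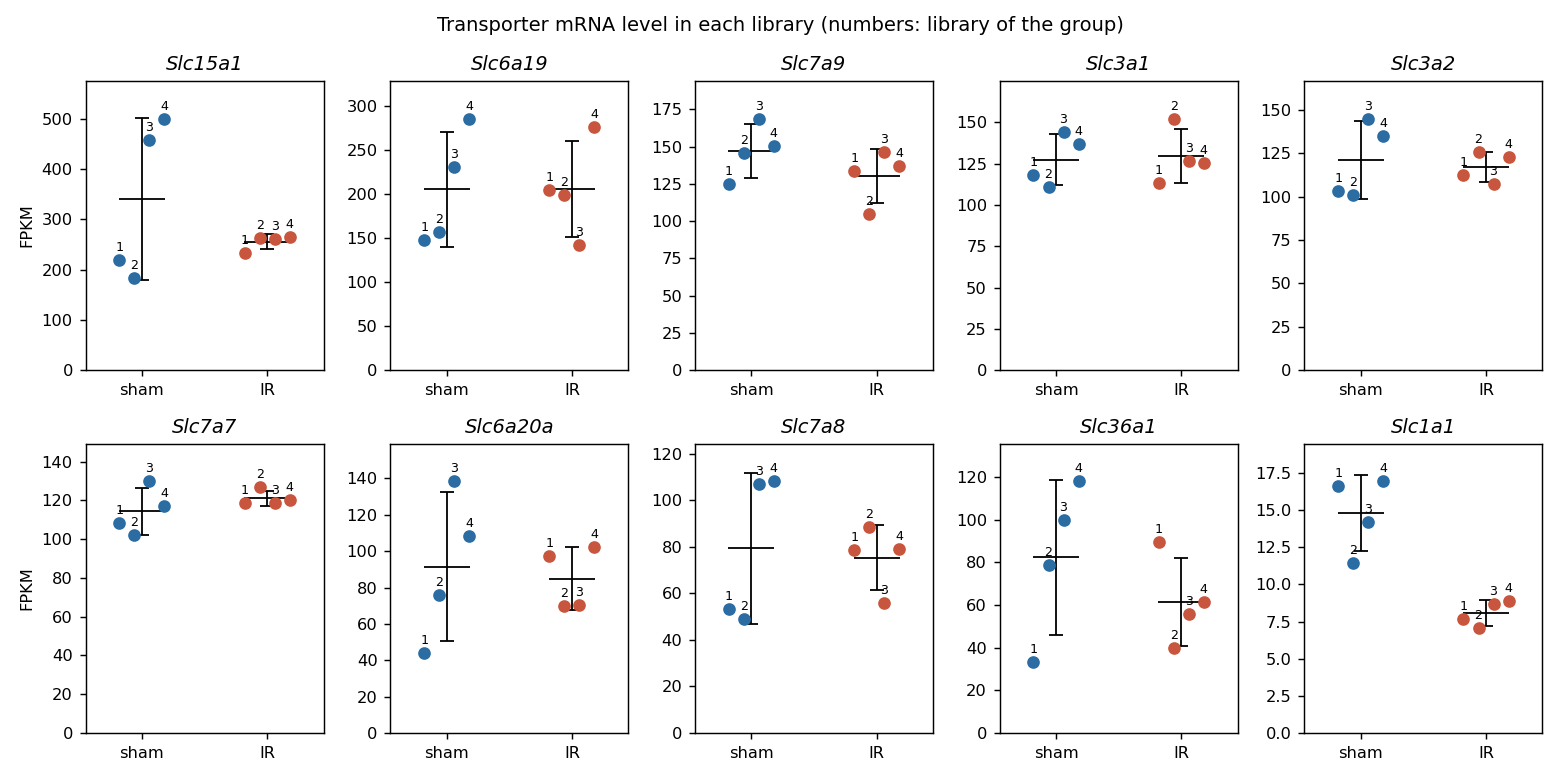
FPKM of each transporter mRNA (vertical axis, from 0) in the 4 sham libraries (blue) and the 4 IR libraries (red). Each point is a library with its number, and the black bar and whiskers are the group mean ± SD. Slc1a1 is the panel in which every IR point (7.08 to 8.89) lies below every sham point (11.5 to 16.9).

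Slc15a1 encodes PepT1, the proton-coupled transporter that takes up short peptides at the apical membrane. It lies on chromosome 14 (mm10, 121459621 to 121505252, minus strand). Its FPKM was 219, 184, 458 and 500 across sham 1 to 4 and 234, 263, 261 and 264 across IR 1 to 4. The sham libraries formed a low and a high pair, with the IR libraries close together between them. The largest sham value was 2.72 times the smallest, against 1.13 times in IR. The sham mean was 340 ± 162 and the IR mean 256 ± 14.6 (SD, n = 4), which edgeR estimated as a log2 fold change of -0.34 (adjusted p = 0.760).

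Slc6a19 encodes B0AT1, the sodium-coupled apical transporter of neutral amino acids, on chromosome 13 (73679745 to 73704865, minus strand). It was at 148, 157, 231 and 285 FPKM across sham 1 to 4, and at 205, 199, 142 and 276 in the IR libraries in the same order. The lowest and the second highest of the 8 values were both from IR mice, so the groups overlapped over nearly their whole range. The means were 205 ± 65.2 and 205 ± 54.7, and the log2 fold change from edgeR was 0.06 ± 0.27 (SE), at an adjusted p of 0.952.

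Slc6a20a encodes a sodium-coupled apical transporter of proline and other imino acids, on chromosome 9 (123634770 to 123678885, minus strand). The sham libraries had 43.8, 75.8, 138 and 108 FPKM and the IR libraries 97.5, 69.6, 70.5 and 102. The 4 IR values lay inside the sham range. The edgeR log2 fold change was -0.04 ± 0.33 (SE) and its adjusted p was 0.977. The adjacent copy Slc6a20b had 0.199, 0.278, 1.77 and 1.53 FPKM across sham 1 to 4 and 0.803 to 1.24 in IR. Fragments of the near-identical copies may have been divided between them in counting, but Slc6a20a was 70.7 to 272 times as high as Slc6a20b in every library.

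Slc7a9 and Slc3a1 encode the light chain b0,+AT and the heavy chain rBAT of the apical exchanger that takes up cystine and cationic amino acids and is defective in human cystinuria. Slc7a9, on chromosome 7 (35448796 to 35466036, plus strand), had 125, 146, 169 and 150 FPKM in the sham libraries and 133, 105, 147 and 137 in IR. The lowest value was that of IR 2 and the highest that of sham 3, with the others between. Slc3a1, on chromosome 17 (85028376 to 85064236, plus strand), had 118, 111, 144 and 137 FPKM in sham 1 to 4 and 113, 152, 127 and 126 in IR. Here IR 2 was the highest of the 8 libraries and sham 2 the lowest. Their edgeR log2 fold changes were -0.04 and 0.13 (adjusted p = 0.950 and 0.823).

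Slc36a1 encodes PAT1, a proton-coupled transporter of small neutral amino acids found at the apical membrane and on lysosomes, on chromosome 11 (55204350 to 55236330, plus strand). It was at 33.3, 78.5, 99.8 and 118 FPKM in the sham libraries and at 89.3, 39.7, 55.8 and 61.5 in the IR libraries. Sham 1 was the lowest and sham 4 the highest of the 8, a 3.54-fold range within sham and the widest among the 10 genes. In edgeR the log2 fold change was -0.31 ± 0.36 (SE), at an adjusted p of 0.799.

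Slc1a1 encodes EAAC1 (EAAT3), the sodium-coupled transporter of glutamate and aspartate, on chromosome 19 (28835049 to 28913960, plus strand). It was at 16.6, 11.5, 14.2 and 16.9 FPKM across sham 1 to 4 and at 7.65, 7.08, 8.67 and 8.89 across IR 1 to 4. Every IR library was below every sham library, and the IR mean of 8.07 ± 0.859 was 0.545 times the sham mean of 14.8 ± 2.54 (SD, n = 4). Each IR library had 427 to 499 Slc1a1 fragments, against 734 to 1309 in sham. These fragments are not scaled to depth, which was 13824442 to 18501751 in IR and 15908984 to 22497272 in sham.

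In edgeR, Slc1a1 had a log2 fold change of -0.83 ± 0.13 (SE) and an unadjusted p of 0.000125, rank 2 of the 12716 mRNAs tested. Its adjusted p was 0.439, so it did not pass. DESeq2 on the same fragments gave a log2 fold change of -0.83 and an adjusted p of 0.000451. Without sham 2, edgeR's adjusted p was 0.0476 at a log2 fold change of -0.93. Neither reached the 2-fold change that a call requires. Over the 8 settings that left out 1 library the log2 fold change ran from -0.93 to -0.73, with an adjusted p of up to 0.706. Marker levels of some other cell types also differed between the groups, in both directions, and edgeR called 0 of the markers named here. Without the fold criterion, DESeq2's adjusted p was below 0.05 for 2 of 5 T cell, 1 of 5 crypt stem cell and 1 of 10 enterocyte markers. It was so for 0 markers of the other lists and for 0.613% of all mRNAs tested. The 5 smooth muscle markers summed to 273 to 327 FPKM in sham and 138 to 233 in IR, all 5 lower. In 3 of them (Acta2, Tagln and Cnn1) every IR FPKM was below every sham FPKM, as in 4.37% of all mRNAs tested. The sum of the 5 crypt stem cell markers was 157 to 241 FPKM in sham and 85.0 to 178 in IR, 4 of 5 lower, with overlap between the groups. In 1 of the 5 (Ascl2) every IR FPKM was below every sham FPKM. The 5 T cell markers were all higher in IR, with a median log2 fold change of 1.32. At an unadjusted p below 0.05 in edgeR, 4 of the 5 passed, against 9.73% of all mRNAs tested. Their sums of 12.9 to 33.7 FPKM for sham and 26.3 to 60.0 for IR overlapped. In 1 of the 5 (Cd3g) every IR FPKM was above every sham FPKM, as in 0.873% of all. The 4 tested B and plasma cell markers were higher too, with a median of 0.94 and overlapping sums. The 5 goblet cell markers had a median log2 fold change of -0.04, with 3 lower and 2 higher in IR. For the 5 Paneth cell markers it was -0.15, with all 5 lower, and the sums of both lists overlapped. No marker of these lists was at 0 in every library. The part of these cells in the Slc1a1 difference was not tested.

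Slc7a7, Slc7a8 and Slc3a2 form the basolateral exchangers. Slc7a7 encodes y+LAT1, which exports cationic amino acids and is defective in human lysinuric protein intolerance, on chromosome 14 (54369442 to 54417780, minus strand). The sham libraries had 108, 102, 130 and 117 FPKM and the IR libraries 118, 127, 119 and 120. The IR libraries lay within 1.07-fold of each other, a coefficient of variation (CV) of 3.23%, lower than that of all but 0.920% of the mRNAs tested. The log2 fold change by edgeR was 0.18 ± 0.13 (SE), at an adjusted p of 0.654.

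Slc7a8 encodes LAT2, an exchanger of neutral amino acids, on chromosome 14 (54722209 to 54781946, minus strand). It was at 53.4, 49.1, 107 and 108 FPKM in the sham libraries and at 78.5, 88.4, 55.6 and 78.9 in the IR libraries. The IR values lay in the gap between the low pair and the high pair of sham libraries. Slc3a2 encodes 4F2hc (CD98), the heavy chain shared by y+LAT1, LAT2 and other exchangers, on chromosome 19 (8706882 to 8723369, minus strand). It had 103, 101, 145 and 135 FPKM in sham 1 to 4 and 112, 125, 107 and 123 in the IR libraries, again between the sham pairs. The log2 fold changes of Slc7a8 and Slc3a2 were 0.01 and 0.05 (edgeR, adjusted p = 0.994 and 0.950).

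Of the 10 transporters, 0 were called changed between IR and sham by edgeR, where a call needed a fold change above 2 together with a Benjamini-Hochberg adjusted p below 0.05. Over all 12716 mRNAs tested, 0% were called. At an unadjusted p below 0.05, 1 of the 10 (Slc1a1) passed, against 1237 mRNAs or 9.73% of all tested. Slc1a1 was also the 1 gene of 10 with every IR FPKM below every sham FPKM, which held for 4.37% of all tested, and 0 of 10 lay wholly above sham, against 0.873% of all. DESeq2 called 0 of the 10 and 40 of all mRNAs, and without the fold criterion 1 of the 10 and 0.613% of all, while limma called 0 of the 10 and 0 of all. The median log2 fold change of the 10 genes was -0.01 and that of all tested mRNAs 0.00, with 5 of the 10 lower and 5 higher in IR. Each count of 1 in 10 was Slc1a1.

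**Figure D2:**
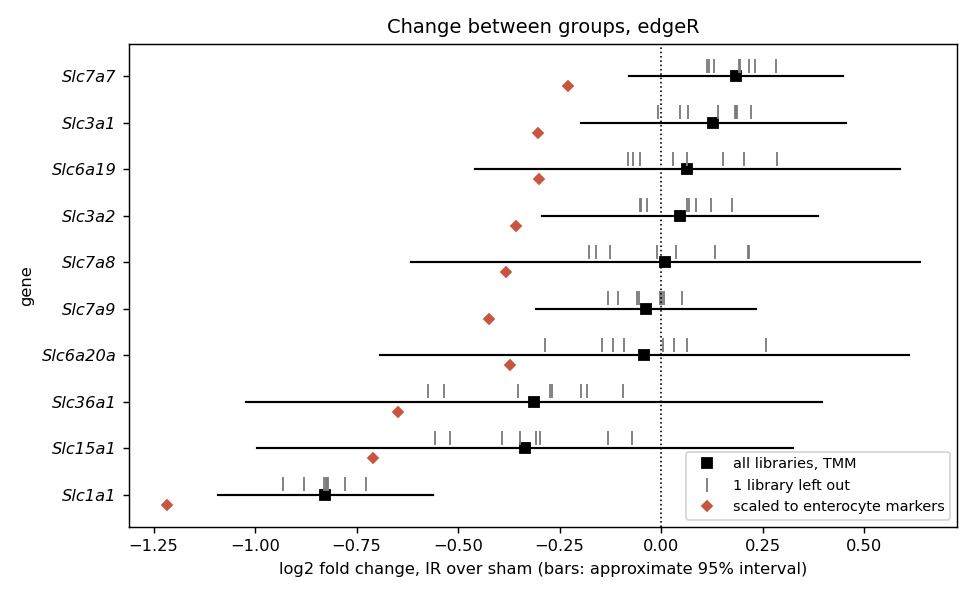
Log2 fold change, IR over sham (horizontal axis), of each transporter from edgeR. Squares are the values with all 8 libraries and bars are approximate 95% intervals, grey ticks are the values with 1 library left out, and red diamonds are those with each library scaled to its enterocyte markers. The bar of Slc1a1, from -1.09 to -0.56, is the 1 bar that does not cross 0.

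Scaling to enterocyte markers turned the direction of 5 of the 10 genes. The 10 enterocyte markers had a median log2 fold change of 0.42, with 9 of 10 higher in IR. At an unadjusted p below 0.05 from edgeR, 6 of the 10 passed, all higher, against 9.73% of all mRNAs tested. In 4 of the 10 (Vil1, Fabp1, Lct and Sis) every IR FPKM was above every sham FPKM, which held for 0.873% of all. The summed FPKM of all 10 markers was 18755 to 23474 in sham and 21584 to 33100 in IR, with overlap. In IR 2, Apoa4 was at 8828 FPKM, against 3684 to 5310 in the other IR libraries. Dividing each library by the summed fragments of the 10 markers moved the median of all tested mRNAs by -0.41. All 10 transporters then had a lower value in IR, from -0.23 for Slc7a7 to -1.22 for Slc1a1, and 0 of 10 were called. Relative to that shift of all genes, Slc1a1, Slc15a1 (-0.71) and Slc36a1 (-0.65) were lower, Slc7a9 was near it at -0.42, and the other 6 lay above it, from -0.38 to -0.23.

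The transporters varied together within the sham group. Sham 3 and sham 4 were the 2 highest sham libraries for 9 of the 10 transporters, against 12.6% of all tested mRNAs, and Slc1a1 was the exception. The summed FPKM of the 10 genes was 968, 1014, 1635 and 1676 across sham 1 to 4 and 1189, 1175, 1093 and 1297 across IR 1 to 4. The sums of sham 1 and sham 2 were below all 4 IR sums, and those of sham 3 and sham 4 above them. As a share of all fragments, the 10 genes took 0.306% in sham 1 to 0.568% in sham 4, and 0.351% to 0.423% in the IR libraries.

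Without Slc15a1 the sums were 749, 830, 1177 and 1176 FPKM across sham 1 to 4, so the split did not rest on the most abundant gene. The median CV of the 10 genes was 25.1% in sham and 13.2% in IR, against 17.5% and 17.4% for all tested mRNAs. 8 of 10 had a larger CV in sham than in IR, as had 50.9% of all. The split by depth is the same, since sham 3 and sham 4 had 22497272 and 19815148 fragments against 15908984 and 15981488 in sham 1 and sham 2. IR 2, at 18501751, was deeper than the other IR libraries and its summed FPKM was not the highest of them. The part of depth was not tested.

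**Figure D3:**
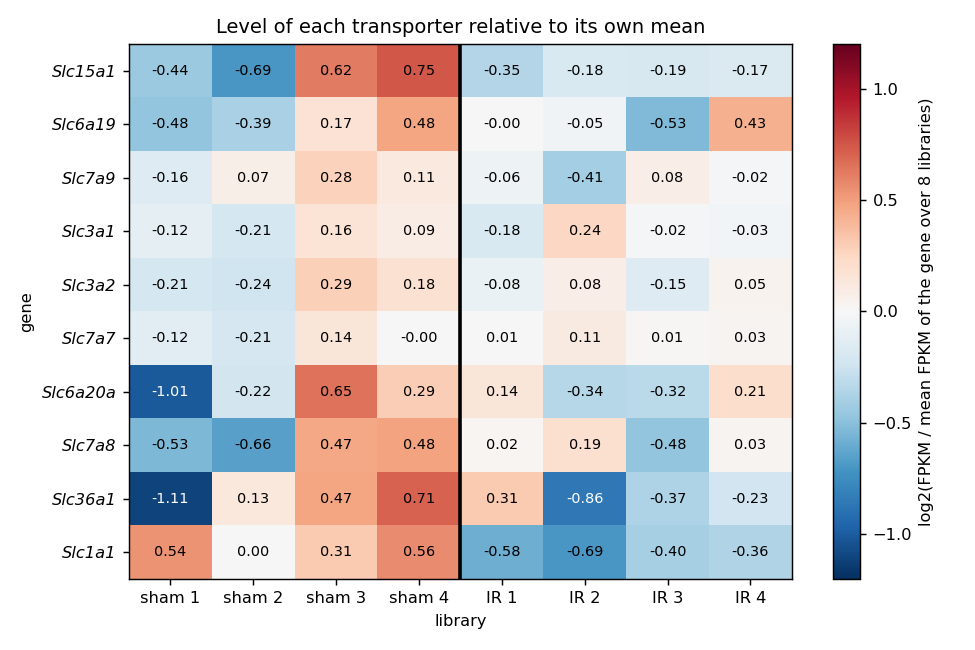
Log2 of the FPKM of each transporter over its own mean in the 8 libraries, by library (columns) and gene (rows); blue is below and red above the mean. Sham 1 and sham 2 are mostly blue, sham 3 is red, and sham 4 is red but for Slc7a7 at -0.0044. Values run from -1.11 for Slc36a1 in sham 1 to 0.75 for Slc15a1 in sham 4. The row of Slc1a1 is blue in every IR library.

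The same split was present in some related genes. Sham 3 and sham 4 were the 2 highest sham libraries for 5 of 7 tested partner and ion gradient genes, 6 of 23 other amino acid and peptide transporters and 3 of 10 enterocyte markers.

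The heavy and light chains of the exchangers were compared as ratios of FPKM, a measure per length. The ratio of Slc7a9 to Slc3a1 was 1.05, 1.31, 1.17 and 1.10 in the sham libraries and 1.18, 0.688, 1.16 and 1.09 in the IR libraries. IR 2, with the lowest Slc7a9 and the highest Slc3a1, stood apart from the other 7. The ratio of Slc7a7 to Slc3a2 was 0.869 to 1.05 in sham and 0.981 to 1.11 in IR, and that of Slc7a8 to Slc3a2 was 0.487 to 0.800 and 0.520 to 0.705.

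Within sham the ratio of Slc7a7 to Slc3a2 was lower, and that of Slc7a8 higher, in sham 3 and sham 4. The sum of both light chains over Slc3a2 was 1.50 to 1.67 in sham and 1.62 to 1.76 in IR, a CV smaller than that of either ratio alone in sham. The groups overlapped for every ratio, and the log2 difference of IR minus sham was -0.20 for Slc7a9 to Slc3a1, 0.12 for Slc7a7 to Slc3a2 and 0.04 for Slc7a8 to Slc3a2. Leaving out 1 library gave -0.27 to -0.02, 0.08 to 0.17 and -0.08 to 0.16 in that order, and the last had the other sign without sham 1, sham 2, IR 1 or IR 2.

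**Figure D4:**
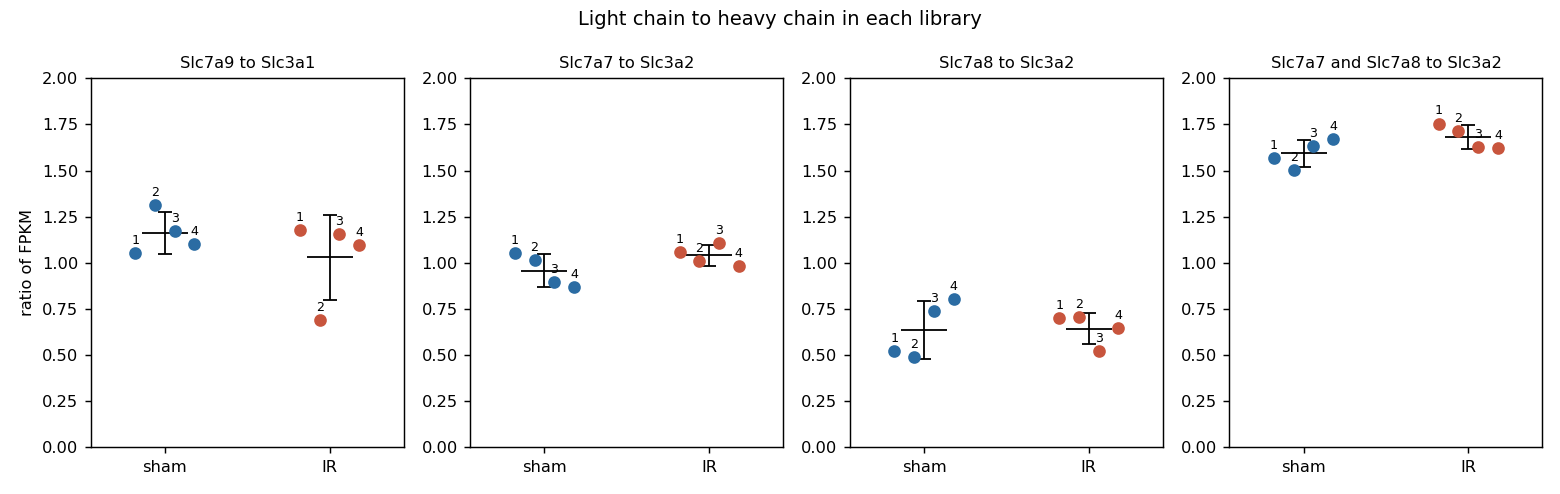
Ratio of the FPKM of light chain to heavy chain (vertical axis, from 0) in each library, with sham in blue, IR in red, library numbers beside the points and group mean ± SD in black. The 8 points of Slc7a9 to Slc3a1 lie between 1.05 and 1.31 but for IR 2 at 0.688.

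Over the 8 libraries, which share a normalisation and differ in depth, the transporters with the most alike levels on the log2 FPKM scale were Slc7a8 and Slc3a2, with Pearson's r of 0.959. Slc15a1 and Slc3a2 had an r of 0.895. Slc6a20a and Slc36a1, whose levels were both lowest in sham 1, had an r of 0.851. Slc7a9 and its partner Slc3a1 had an r of -0.13 over all 8 libraries and 0.723 without IR 2, which had the lowest Slc7a9 and the highest Slc3a1 and was left out after the data were seen. Slc1a1 had an r between -0.31 and 0.49 with the other 9. These values describe 8 points and carry no test.

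Outside the 10 genes, the 5 tested mRNAs most like Slc1a1, by Pearson's r of log2 CPM (fragments scaled to library size, TMM-normalised) over the 8 libraries, were Hes6 (0.962), Rbfa (0.957), Ppa2 (0.952), 5730507C01Rik (0.948) and Gm10259 (0.942). Each of them, like Slc1a1, had every IR FPKM below every sham FPKM, as had 4.37% of all tested mRNAs. They were picked for their likeness to Slc1a1 over these same libraries, so this separation follows largely from the choice. Hes6, a transcriptional regulator of the hairy and enhancer of split family, ranged from 17.5 to 19.9 FPKM among sham and from 13.2 to 16.1 among IR libraries. Ppa2, a mitochondrial pyrophosphatase, ranged from 19.7 to 21.9 among sham and from 15.0 to 17.4 among IR libraries. The edgeR log2 fold changes were -0.21 for Hes6, -0.28 for Ppa2 and -0.36 for Rbfa, smaller in size than that of Slc1a1, and -1.12 for Gm10259 and -2.36 for 5730507C01Rik, larger in size, with adjusted p from 0.439 to 0.504. Gm10259 and 5730507C01Rik were low, with mean FPKM of 0.771 and 1.70 in sham and 0.334 and 0.316 in IR.

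A list of 44 other amino acid and peptide transporters of the SLC families served as comparison. Of these, 23 passed the filter on low values and 3 (Slc6a5, Slc7a12 and Slc7a13) were at 0 in every library. Their 4 highest by mean FPKM were Slc43a2 (LAT4, a basolateral uniporter of branched-chain and aromatic neutral amino acids), Slc16a10 (TAT1, which carries aromatic amino acids), Slc6a6 (the taurine transporter) and Slc38a10, of the SNAT family. Slc43a2 averaged 174 ± 45.4 FPKM for sham and 174 ± 7.33 for IR, within the range of the 10 genes, with 118 and 226 FPKM in sham 1 and sham 3. Slc16a10 was at 69.6 ± 21.3 and 64.7 ± 8.91 FPKM, Slc6a6 at 51.6 ± 8.69 and 47.7 ± 11.9, and Slc38a10 at 32.7 ± 6.18 and 38.0 ± 5.88. Like several of the 10 genes, Slc43a2 and Slc16a10 varied more among sham than among IR libraries.

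EdgeR called 0 of the 23 and DESeq2 and limma called 0 as well. At an unadjusted p below 0.05 from edgeR, 2 of 23 passed, both lower in IR, against 9.73% of all mRNAs tested. The 2 were Slc6a7, a proline transporter of the brain, at 1.53 ± 0.526 and 0.696 ± 0.265 FPKM, and Slc1a4, a neutral amino acid exchanger, at 1.26 ± 0.322 and 0.712 ± 0.205. Both are named after their values were seen. Their adjusted p was 0.455 and 0.482 from edgeR, and the groups overlapped. The median log2 fold change of the 23 was -0.02, with 13 lower and 10 higher in IR. Slc1a5, another member of the family of Slc1a1, was at 13.9 ± 3.85 and 11.9 ± 2.39 FPKM, with a log2 fold change of -0.14.

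**Figure D5:**
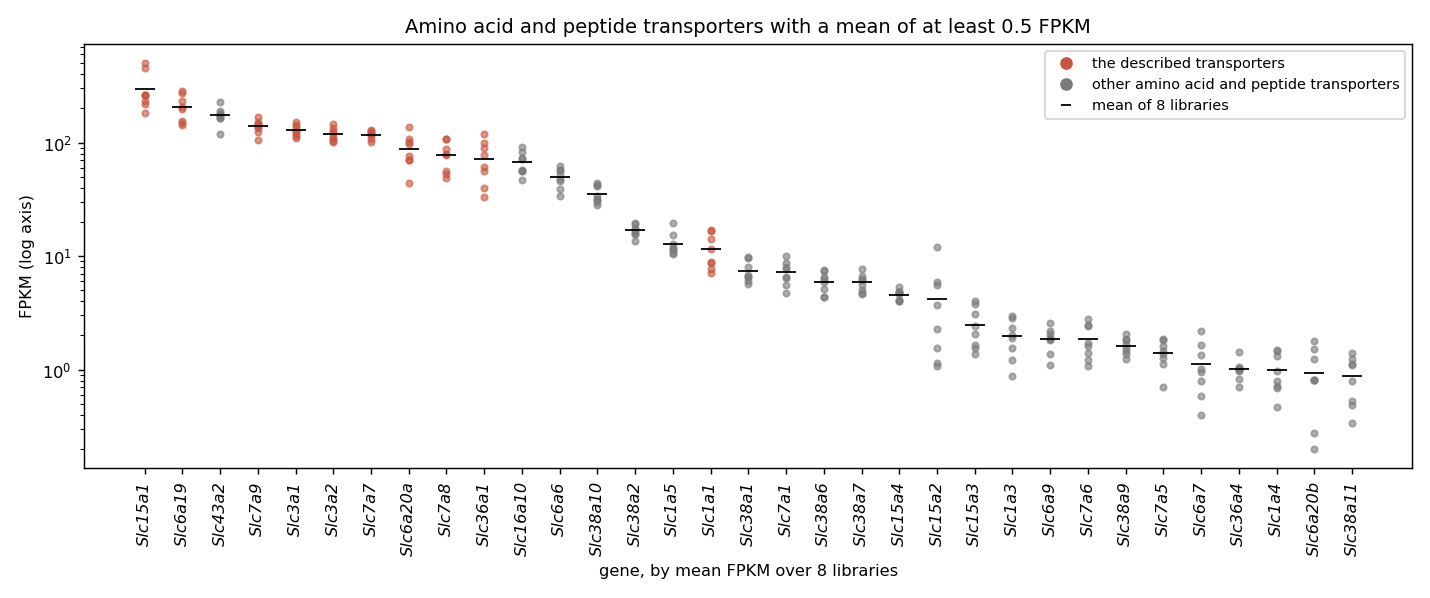
FPKM (log axis) of the 33 amino acid and peptide transporters with a mean of at least 0.5 FPKM, in order of their mean. Each point is 1 of the 8 libraries, the 10 described genes are red and the 23 others grey, and black bars are means. Of the 10 genes, 9 are among the highest 10 of the plot, together with Slc43a2 at a mean of 174 FPKM, and Slc1a1 stands lower at 11.4.

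Of 8 genes that supply the transporters with partners and ion gradients, 7 passed the filter on low values, and Tmem27 (collectrin, a membrane protein of the kidney tubule), at 0 to 0.240 FPKM, did not. Anpep, the brush border aminopeptidase that frees amino acids from peptides and binds B0AT1, averaged 1899 ± 362 FPKM for sham and 1817 ± 158 for IR. Atp1b1, the beta subunit of the sodium pump, was at 718 ± 65.3 in sham and 738 ± 107 in IR. All 7 tested genes of this list had an edgeR log2 fold change above 0, also Anpep, whose mean FPKM was lower in IR, with a median of 0.29, and 0 were called by edgeR, 0 by DESeq2 and 0 had an unadjusted p below 0.05. Of 9 tested genes of the amino acid response, the program that Atf4 drives when amino acids are short, 6 were lower in IR. EdgeR, DESeq2 and limma called 0 of the 9. At an unadjusted p below 0.05 from edgeR, 1 of the 9 passed, against 9.73% of all mRNAs tested. In 1 of the 9 every IR FPKM was below every sham FPKM, which held for 4.37% of all. Each count of 1 in 9 was Cebpb. Cebpb, a target of that program, averaged 16.4 ± 0.518 FPKM for sham and 11.2 ± 1.33 for IR with no overlap (log2 fold change -0.45, adjusted p = 0.455 from edgeR). Atf4 itself was at 90.3 ± 8.06 and 82.3 ± 15.5, Asns, asparagine synthetase, at 15.7 ± 4.19 and 12.6 ± 3.69, and Ddit3, which encodes CHOP, at 14.5 ± 1.67 and 16.0 ± 1.83.

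The lncRNA table held transcripts at the loci of 4 of the 10 genes. Of these, 5 passed the filter. Snhg1, a host gene of small nucleolar RNAs, starts on the other strand, separated from the start of Slc3a2 by 105 bases, and had 3 tested transcripts. Their summed FPKM was 32.1, 17.8, 18.0 and 23.7 across sham 1 to 4 and 13.0, 10.0, 17.4 and 27.2 across IR 1 to 4. IR 1 and IR 2 were lowest and sham 1 highest, the groups overlapped, and sham 3 and sham 4 were not the 2 highest, unlike in Slc3a2. Of the 3 transcripts, ENSMUST00000181422 was at 4.81 ± 1.35 and 2.75 ± 1.08 FPKM, for which edgeR gave a log2 fold change of -0.73, an unadjusted p of 0.0373 and an adjusted p of 0.700.

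At Slc3a1, the antisense AK013363 within an intron had 1.66 ± 0.751 FPKM in the sham group and 1.14 ± 0.323 in the IR group, from 12 to 36 fragments per library. At Slc6a19, uc011zbs.1 overlaps the exons on the same strand and was at 75.2 ± 16.3 and 75.0 ± 19.7 FPKM. The same fragments may have been counted for both, so it is no separate measurement. Of the 5 transcripts 0 were called by edgeR, as were 0% of the 3088 lncRNAs tested, 1 had an unadjusted p below 0.05, against 7.06% of all, and 0 had every IR value below every sham value, against 2.88%. DESeq2 and limma called 0 of the 5 too.

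The sequences before the starts are shown for the genes named next, each picked for the reason given, with their motifs in capitals. Slc15a1 is the most abundant, Slc3a1 has the hepatocyte nuclear factor 4 (HNF4) motif CAAAGTCCA, Slc1a1 is the 1 gene whose groups did not overlap, and the last stretch lies between Slc3a2 and Snhg1. The sequences are from RefSeq on GRCm38.p6 (mm10), 5′ to 3′ on the strand of the gene, which is the plus strand for the interval. The coordinates are chr14:121505255-121505504 (minus strand) for Slc15a1, chr17:85028097-85028346 (plus) for Slc3a1, chr19:28834885-28835048 (plus) for Slc1a1 and chr19:8723370-8723474 for the interval of 105 bases, of which 56.2% are G or C. For Slc1a1 the 164 bases before the start of the GENCODE vM21 gene are given, since RefSeq starts further downstream.
Slc15a1: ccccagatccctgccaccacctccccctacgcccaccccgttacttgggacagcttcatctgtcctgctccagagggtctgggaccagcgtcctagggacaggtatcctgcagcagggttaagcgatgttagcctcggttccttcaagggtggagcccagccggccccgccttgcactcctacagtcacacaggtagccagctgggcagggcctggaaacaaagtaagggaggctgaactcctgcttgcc
Slc3a1: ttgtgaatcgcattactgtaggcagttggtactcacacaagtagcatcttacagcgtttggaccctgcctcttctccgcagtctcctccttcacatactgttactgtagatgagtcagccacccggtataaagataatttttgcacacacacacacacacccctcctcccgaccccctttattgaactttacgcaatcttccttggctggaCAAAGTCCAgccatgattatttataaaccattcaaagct
Slc1a1: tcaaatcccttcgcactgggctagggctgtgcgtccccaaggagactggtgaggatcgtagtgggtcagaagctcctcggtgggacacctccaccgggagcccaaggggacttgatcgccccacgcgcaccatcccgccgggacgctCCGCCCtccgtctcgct
Slc3a2-Snhg1: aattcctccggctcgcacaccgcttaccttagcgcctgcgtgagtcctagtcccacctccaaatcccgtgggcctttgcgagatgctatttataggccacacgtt

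Over the 250 bases before the RefSeq starts, 15 windows for the 10 genes, 4 motifs were searched on both strands. CAAAGTCCA was in Slc3a1 only, 39 bases before its start, and in 0.451% of the 27025 genes with a window. GGGCGG, the SP1 motif, was in 5 of 10 (Slc1a1, Slc6a20a, Slc7a7, Slc7a8 and Slc3a2), against 35.4% of all genes. In Slc1a1 it lies on the other strand and so reads CCGCCC above. TTTATG, a motif of CDX2, was in 0 of 10 and in 12.4% of all, and TGATGNAAN, that of amino acid response elements, was in Slc7a7 only, against 3.89%. No hit overlapped a hit of another motif. The windows of Slc3a2, Slc6a19 and Slc7a9, and 2 of the 5 windows of Slc7a7, lie wholly within the GENCODE gene. Slc15a1 and the interval hold none of the 4.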

How the data were processed

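The authors sequenced stranded, rRNA-depleted libraries of cardiac EV RNA, 4 of sham and 4 of IR mice. Per the submitters' processing notes, reads were trimmed with cutadapt (1.9.3), aligned to mm10 with HISAT2 and quantified with Cufflinks and Cuffdiff (versions and annotation not given in the sources used here). The deposited FPKM values were made by the authors, scaled to transcript length and library size. The deposited estimated counts were already multiplied by a factor per library by the authors. Fragments were recovered by dividing by the commonest value per library, the worth of 1 fragment, and then rounded. Of the mRNA values above 0 and below 200 fragments, 92.2% to 92.6% lay within 0.02 of a whole number (71.2% to 72.0% of lncRNA values). Entries of 1 gene with different values were summed (70 mRNA genes, none of the 10), and columns of single libraries without a sample numbered 0.

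IR and sham were compared with edgeR 4.0.16 (TMM, robust quasi-likelihood F test, two-sided, R 4.3.3), mRNAs and lncRNAs apart. Features under a mean of 0.5 FPKM were left out, and Benjamini-Hochberg adjustment covered every feature tested. Standard errors are the absolute log2 fold change over the square root of F, and so approximate. Alternatives were DESeq2 1.42.0, limma 3.58.1 on log2(FPKM + 0.1) or + 1, median-ratio size factors, scaling to enterocyte markers, no filter, no fold criterion, a replicate block and each library left out. The test was checked on simulated data.

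The members and lists were chosen with earlier results of these data known. Named are the 10 genes, the 4 highest of each transporter, partner or amino acid response list by mean FPKM and any called, the 5 genes most like Slc1a1, and tested lncRNAs of the loci. Some genes that this rule names are not reported here. Nothing beyond the labels says that libraries are separate litters or days. Coordinates are from GENCODE vM21, whose gene identifiers matched the table for all 10.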

Additional observations from a re-analysis of the deposited data

Results flagged for a closer look

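Among 120 groups of 4 libraries, 8 held a library whose gap to the nearest other, as a share of the range of its group, exceeded Dixon's critical value, and chance flags about 1 in 20 groups. One concerns a transporter, Slc15a1 in IR 1, at 234 FPKM against 261 to 264 in the other IR libraries. The others are marker genes. Agr2, a goblet cell gene, was at 290 FPKM in sham 1 (others 122 to 150) and at 178 in IR 3 (others 140 to 142). Ang4, of Paneth cells, was at 11.7 in sham 1, against 42.5 to 47.7. Cd79b, of B cells, was at 2.76 in sham 2 and Lgr5, of crypt stem cells, at 2.31. In IR 3 the smooth muscle genes Des and Myh11 were at 22.9 and 18.0, against 40.9 to 43.9 and 41.6 to 42.9.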

How the results depend on the processing

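Each alternative changed 1 setting, and all but the one without it kept the fold criterion. Of the transporters, 0 were called under any alternative, and so were 0 of the other transporters and of the lncRNAs at their loci. Slc1a1 had an adjusted p below 0.05 but less than a 2-fold change with DESeq2 (0.000451) and with edgeR without sham 2 (0.0476). Over all mRNAs, DESeq2 called 40, scaling to enterocyte markers 2, and leaving out a library 0 to 4, the 4 without sham 2. Of 150 values of the 10 log2 fold changes under alternatives, 26 had the other sign, none of them for Slc1a1, Slc15a1 or Slc36a1. With enterocyte scaling Slc6a19 went to -0.30, Slc3a1 to -0.30, Slc7a7 to -0.23, Slc7a8 to -0.38 and Slc3a2 to -0.36. With limma Slc3a2 was at -0.0341 (pseudocount 0.1) or -0.034 (pseudocount 1). Leaving out 1 library gave -0.0818 to 0.286 for Slc6a19, -0.29 to 0.26 for Slc6a20a, -0.132 to 0.0507 for Slc7a9, -0.0087 to 0.222 for Slc3a1, -0.18 to 0.22 for Slc7a8 and -0.0527 to 0.175 for Slc3a2. For Slc15a1, whose value is called in no setting, it gave -0.56 (without sham 2) to -0.07 (without sham 4), and for Slc36a1 -0.57 to -0.09. The log2 difference of the ratio of Slc7a9 to Slc3a1 was -0.20 with all libraries and -0.02 without IR 2. The causes were not tested.

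The labels do not say whether the replicate numbers pair mice, and the main fit did not pair them. Same-numbered libraries deviated with correlations of -0.32 to 0.05 (mRNAs), and differently numbered ones with -0.23 to 0.35. These values cannot show whether same-numbered mice shared a day or a litter. A replicate block gave 0 calls over all mRNAs and among the 10 genes, moved Slc6a20a to 0.0889, and changed no other call or direction. With 4 mice per group, the intervals of most of the 10 genes span both directions, so a value near 0 does not show that the groups are alike.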
